A study of Mus musculus with 8 samples.

Results

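The transcripts described here encode the transcription factors that direct blood progenitors into the neutrophil, monocyte and dendritic cell lineages. They were taken by name, as every probe set whose symbol in the authors' annotated table was Cebpa, Cebpb, Cebpd, Cebpe, Cebpg, Gfi1, Irf8 or Sfpi1, the older symbol of Spi1, which encodes PU.1. All 8 genes were found among 21104 genes tested, each with 1 probe set. Their levels were measured on Affymetrix arrays in haematopoietic stem cells (HSCs) from untreated C57Bl/6 mice, sorted as lineage-negative, Sca-1-positive, Kit-positive marrow cells with high CD9, with CD150 and without CD48. The 4 KO pools came from mice carrying Vav-Cre, a transgene active in blood cells, whose Bmpr2 carried loxP sites flanking exons 4 and 5 on each allele, written Vav-Cre;BMPR-II(fl/fl). The product of Bmpr2 is a type II partner in the receptors of bone morphogenetic proteins. The 4 WT pools came from littermates negative for Cre, a mixture of BMPR-II(fl/fl), BMPR-II(fl/+) and BMPR-II(+/+) mice. Each pool joined the bones of 3 mice, so a pool hides the spread between animals, and because every KO pool and no WT pool carried Vav-Cre, effects of the transgene and of the deletion cannot be told apart. The question put to these 8 genes was whether stem cells of the KO genotype carry other amounts of the transcripts that set the myeloid fate.

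The C/EBP proteins bind DNA as pairs through a basic region and a leucine zipper, and members of the family can pair with each other. C/EBP alpha is needed for progenitors to enter the granulocyte and macrophage path, C/EBP beta for the increased output of neutrophils during infection, C/EBP epsilon for the late steps of neutrophil maturation, and C/EBP delta is induced in acute inflammation. C/EBP gamma lacks an activation domain and acts through its partners. PU.1, an ETS factor, is required for myeloid and lymphoid development and is present from the stem cell onwards. GFI1 is a zinc finger repressor that favours neutrophils over monocytes and restrains stem cell proliferation, and IRF8 favours monocytes and dendritic cells over neutrophils.

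Transcript starts of 5 of the 8 genes could be matched to RefSeq promoter windows (build GRCm38.p6), those of Cebpa, Cebpb, Cebpg, Gfi1 and Irf8. The 250 bases before the first listed start were searched on both strands for 5 short motifs. These were the promoter element spelled TATAAA, the promoter element spelled CCAAT, the core of a C/EBP site spelled TTGCG, a looser C/EBP palindrome spelled TTNNGNAA, and an ETS core of the kind PU.1 binds, spelled GGAAGT. The element TATAAA lay 30 bases before the start in Cebpa and 31 bases before it in Irf8, and 12.4% of all 32851 windows held one. Cebpa also held TTGCG, 185 bases upstream, which 14.5% of windows held, and C/EBP alpha is known to act on its own promoter. Cebpg instead held 2 copies of CCAAT on the opposite strand, 28 and 89 bases upstream, and Irf8 held 1 at 121 bases, where 33.8% of windows held any. In Gfi1 the search found only TTNNGNAA, 143 bases upstream, a form present in 36.8% of windows, and in Cebpb it found none of the 5, nor did any of these windows hold GGAAGT. The stretches of Cebpa (chr7:35119043-35119292, plus strand), Irf8 (chr8:120736108-120736357, plus strand) and Cebpg (chr7:35056567-35056816, minus strand) are shown because they differ in these elements, with every match in capitals. A match is a description of the letters and not evidence of binding.
Cebpa: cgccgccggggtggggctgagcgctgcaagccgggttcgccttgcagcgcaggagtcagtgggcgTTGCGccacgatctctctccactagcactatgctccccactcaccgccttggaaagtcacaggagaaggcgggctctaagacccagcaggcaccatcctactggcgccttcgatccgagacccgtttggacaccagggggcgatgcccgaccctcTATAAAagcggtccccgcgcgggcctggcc
Irf8: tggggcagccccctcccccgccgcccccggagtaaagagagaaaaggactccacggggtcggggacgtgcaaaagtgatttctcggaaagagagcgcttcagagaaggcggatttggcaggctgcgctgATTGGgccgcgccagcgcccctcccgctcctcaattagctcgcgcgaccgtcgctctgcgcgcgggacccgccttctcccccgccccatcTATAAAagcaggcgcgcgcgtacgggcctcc
Cebpg: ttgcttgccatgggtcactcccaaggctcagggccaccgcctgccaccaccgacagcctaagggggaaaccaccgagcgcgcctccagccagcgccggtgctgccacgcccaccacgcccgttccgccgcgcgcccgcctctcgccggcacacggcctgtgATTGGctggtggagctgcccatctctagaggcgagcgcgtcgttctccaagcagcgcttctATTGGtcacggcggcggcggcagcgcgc

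The arrays were alike in overall level, with medians between 5.58 and 5.69 on the log2 scale, and WT pool 2 stood somewhat apart, with a median r across genes of 0.982 to the others, where each remaining pool reached 0.985 to 0.987. Bmpr2, the gene targeted for deletion, spanned 6.64 to 7.22 in KO and 7.05 to 8.09 in WT. The groups of Bmpr2 thus overlapped in 1 KO and 1 WT pool, and its probe set may cover exons outside the deletion. Its difference was -0.79 (KO minus WT, SE 0.21), with a limma p of 0.00287 that became 0.967 over all genes. The targeted gene itself thus did not pass at limma's adjusted p under 0.05. Kit (9.86 to 10.59), Slamf1, which encodes CD150 (6.63 to 7.56), and Procr (7.08 to 8.07) give the levels of 3 genes of the stem cell gate and identity. Cd9, also of the gate, varied more between pools, from 8.09 to 9.78. Cd48, whose protein the gate excludes, ran from 4.12 in WT pool 2 to 6.13 in KO pool 3. Levels are RMA values on the log2 scale, which compress differences of dim probe sets, and a level cannot be set against that of another probe set. As a guide to background, 1127 probe sets of olfactory receptors, genes that marrow stem cells are not known to use, had a 95th percentile of 5.10 for their means in KO and 5.20 in WT. By that guide Cebpd was dim in both groups and Cebpa in WT, and the other 6 genes lay above it in both groups.

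None of the 8 factors differed between KO and WT at limma's adjusted p under 0.05, and none had groups of pools that did not overlap. Over all genes 0 of 21104 passed (0.00%), 960 had an unadjusted p under 0.05 (4.55%) and 545 had groups that did not overlap (2.58%). Among the 8, Cebpd was the only gene with an unadjusted p under 0.05. The means of Cebpd differed by 0.47 and those of the other 7 by at most 0.10 in size. For these 7 the 95% intervals, which are not adjusted for the number of genes, reached at most a 1.29-fold change in either direction on the deposited scale. Cebpa is among these 7 but was above the dim reference in 3 of 8 pools, so its interval describes values near background.

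**Figure D1:**
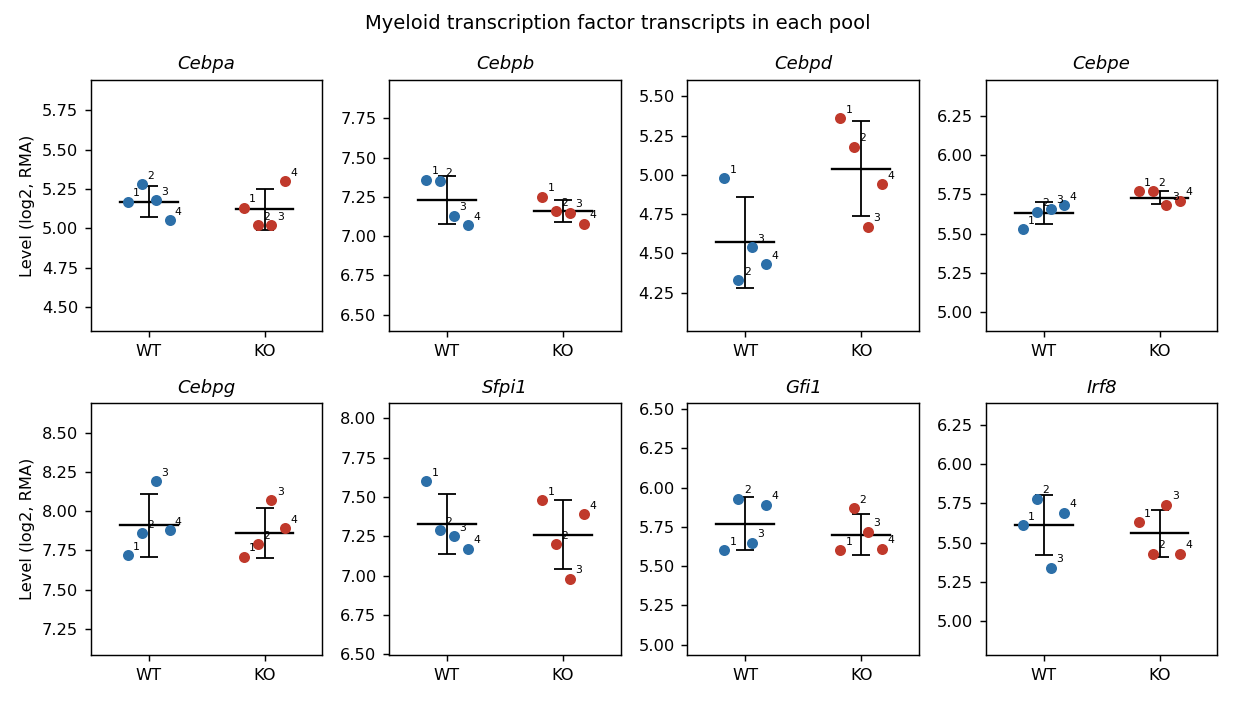
Level of each transcript (log2, RMA) in the 4 WT pools (blue) and 4 KO pools (red), numbered by pool, with the mean (line) and SD (bar) of each group; every panel spans 1.6 log2 units. The points of the groups overlap in every panel, and Cebpd, with a range of 1.03 over the pools, is the most spread.

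Cebpa, which opens the granulocyte and macrophage path, was at 5.13, 5.02, 5.02 and 5.30 in KO pools 1 to 4 and at 5.17, 5.28, 5.18 and 5.05 in WT pools 1 to 4. The groups overlapped, with KO pool 4 the highest of all and KO pools 2 and 3 the lowest. The difference was -0.05 (KO minus WT, SE 0.11), with a 95% interval from -0.29 to 0.18 and a limma adjusted p of 0.981.

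For Cebpb, KO pools 1 to 4 measured 7.25, 7.16, 7.15 and 7.08, and WT pools 1 to 4 measured 7.36, 7.35, 7.13 and 7.07. All KO pools lay within the span of the WT pools, and the means of 7.16 ± 0.07 and 7.23 ± 0.15 (SD, n = 4) differed by -0.07 (SE 0.11; limma adjusted p 0.980). The genes whose pattern over the 8 pools was most like that of Cebpb encode ribosomal proteins, Rpl35a with a Pearson r of 0.97 and Rps28 with 0.96.

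Cebpd, the factor of acute inflammation, measured 5.36, 5.18, 4.67 and 4.94 across KO pools 1 to 4 and 4.98, 4.33, 4.54 and 4.43 across WT pools 1 to 4. KO pools 1 and 2 lay above every WT pool and WT pools 2, 3 and 4 lay below every KO pool, while WT pool 1 exceeded KO pools 3 and 4. The means of 5.04 ± 0.30 and 4.57 ± 0.29 (SD, n = 4) differed by 0.47 (SE 0.18), or 1.38-fold, with a 95% interval from 1.06-fold to 1.81-fold. This did not pass, with an exact permutation p of 0.0857 and a limma p of 0.0222 that became 0.967 over all genes. The within-group SD of Cebpd, 0.29, exceeded that of 83.6% of genes, and 2 of the 8 pools lay above the dim reference of their array.

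Markers of neutrophils and monocytes went with Cebpd in some pools and not in others. The neutrophil and monocyte marker list, as the mean deviation of its 20 genes from their means over the 8 pools, took the values -0.20, 0.54, 0.15 and -0.02 across KO pools 1 to 4 and -0.13, -0.57, 0.36 and -0.13 across WT pools 1 to 4. WT pool 2 was the lowest for both, but KO pool 1, the highest for Cebpd, had a negative value for these markers, and WT pool 3, with the second highest marker value, had Cebpd at 4.54. The mean level of the list ranged from 5.95 to 6.70 in KO and from 5.58 to 6.52 in WT, 14 of its 20 genes had the higher mean in KO and 0 passed limma's test. Its members Ly6g, Itgam, Csf1r and Cd14 were dim in both groups. In such bulk samples fewer cells of a type and less RNA per cell cannot be told apart.

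Cebpe, the late neutrophil factor, was at 5.77, 5.77, 5.68 and 5.71 in KO pools 1 to 4 and at 5.53, 5.64, 5.66 and 5.68 in WT pools 1 to 4. Only WT pool 4 and KO pool 3 overlapped, by less than the last digit given here. The difference of 0.10 (SE 0.10), or 1.07-fold, was small in size, with an exact permutation p of 0.0571 and a limma adjusted p of 0.967. Its within-group SD of 0.06 exceeded that of 0.763% of genes.

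Cebpg, the partner without an activation domain, was at 7.71, 7.79, 8.07 and 7.89 in KO pools 1 to 4 and at 7.72, 7.86, 8.19 and 7.88 in WT pools 1 to 4. Pool 3 was the highest of each group and pool 1 the lowest, and the means differed by -0.05 (SE 0.13; limma adjusted p 0.984). The sign of the Cebpg difference turned without WT pool 3, at 0.04.

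Sfpi1, the transcript of PU.1, was at 7.48, 7.20, 6.98 and 7.39 in KO pools 1 to 4 and at 7.60, 7.29, 7.25 and 7.17 in WT pools 1 to 4. KO pool 3 was the lowest and WT pool 1 the highest, and the other pools were mixed. The difference was -0.07 (SE 0.14), with a 95% interval from -0.37 to 0.24 and a limma adjusted p of 0.981, and it turned to 0.03 without KO pool 3 and to 0.02 without WT pool 1. Of 10549 genes above the median level, Irf1, which encodes an interferon regulatory factor, had the pattern most like that of Sfpi1 (Pearson r 0.98 over 8 pools), at 7.63, 7.32, 6.88 and 7.52 in KO and 7.98, 7.51, 7.37 and 7.17 in WT. The next was Efnb2 with 0.94, and 23 genes had an r over 0.9.

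Gfi1 was at 5.60, 5.87, 5.72 and 5.61 in KO pools 1 to 4 and at 5.60, 5.93, 5.65 and 5.89 in WT pools 1 to 4. The groups covered nearly the same span, and the means of 5.70 ± 0.13 and 5.77 ± 0.17 (SD, n = 4) differed by -0.07 (SE 0.12; limma adjusted p 0.980). Irf8 was at 5.63, 5.43, 5.74 and 5.43 in KO pools 1 to 4 and at 5.61, 5.78, 5.34 and 5.69 in WT pools 1 to 4. WT pools held both the highest and the lowest Irf8 level, and the difference was -0.05 (SE 0.13), with a 95% interval from -0.33 to 0.23 and a limma adjusted p of 0.984. Without WT pool 2 it was 0.01.

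**Figure D2:**
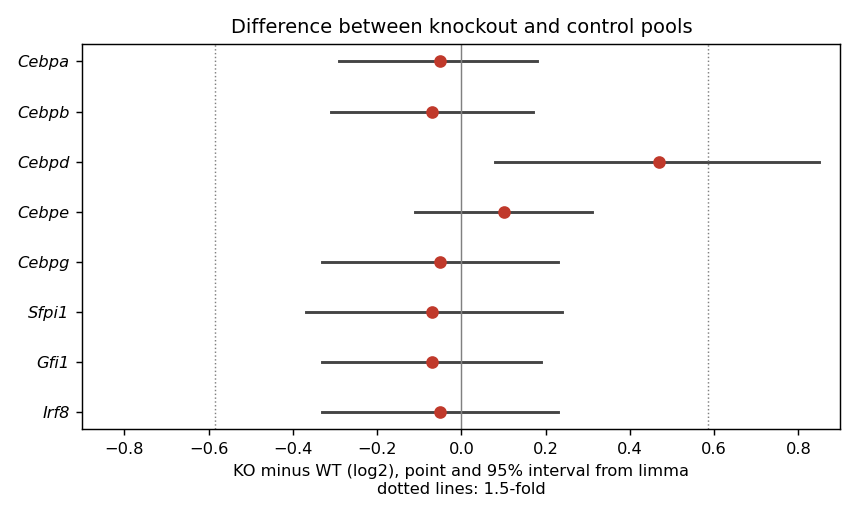
Difference between group means (KO minus WT, log2) of each transcript with its 95% interval from limma, dotted lines marking 1.5-fold. The intervals of 7 genes include 0 and stay inside the dotted lines, and that of Cebpd runs from 0.08 to 0.85.

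Across the 28 pairs of genes, Pearson's r over the 8 pools lay between -0.63, for Cebpg and Sfpi1, and 0.55, for Cebpb and Sfpi1, with a median of -0.14, and 0 pairs reached 0.7 in size. With each group's mean taken out, Cebpd and Sfpi1 reached 0.82, against 0.47 before, and the next in size was -0.68 for Cebpg and Sfpi1. These values describe 8 arrays that share their processing and carry no test. The gene above the median level with the pattern most like a factor's, by Pearson's r over the 8 pools, was Rps6kl1 for Cebpa (0.95), Rasa1 for Cebpd (0.97), Trim56 for Cebpe (0.90), 1810009A15Rik for Cebpg (0.98), Gm9405 for Gfi1 (0.94) and Tmco4 for Irf8 (0.96). The search ran over 10549 genes with 8 pools, and between 1 gene, for Cebpe, and 27 genes, for Cebpd, had an r over 0.9. The median within-group SD of the 8 factors was 0.16, against 0.19 over all genes. The 30 granule and effector genes known as targets of C/EBP factors and PU.1 had a median within-group SD of 0.37. Mpo, which encodes the granule enzyme myeloperoxidase, was at 4.94, 7.35, 8.18 and 6.33 in KO and at 5.29, 5.37, 7.26 and 6.20 in WT. S100a8, which encodes an abundant neutrophil calcium-binding protein, ranged from 7.04 in WT pool 2 to 11.21 in KO pool 2. In the pools highest for Mpo, KO pools 3 and 2 and WT pool 3, Cebpa was at 5.02, 5.02 and 5.18, and it spanned 0.28 over all pools. Cebpa was above the dim reference in 3 of 8 pools, so these values cannot show whether it follows Mpo.

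**Figure D3:**
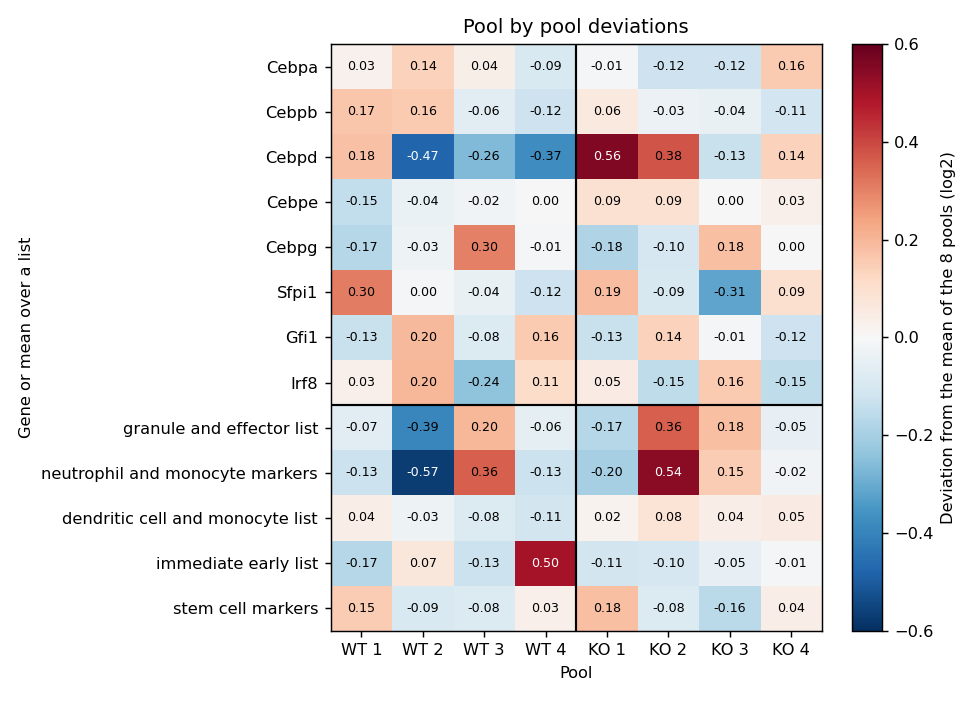
Deviation of each pool from the mean of the 8 pools (log2) for the 8 transcripts (upper rows) and, as a mean over the genes of a list, for related lists (lower rows), red above and blue below the mean. The neutrophil and monocyte markers run from -0.57 in WT pool 2 to 0.54 in KO pool 2, while Cebpd, also lowest in WT pool 2, is highest in KO pool 1.

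Genes that work with these factors were counted in fixed lists, of which 0 members passed limma's test over all genes. As background, 48.7% of all genes had the higher mean in KO and the median difference of all genes was 0.00. Of 14 partners and regulators of C/EBP proteins, 7 were higher and 7 lower, with a median of 0.00. They include Batf, which encodes a zipper protein that pairs with JUN proteins, with a difference of 0.47 (SE 0.25), which leaving out KO pool 4 brought to 0.21 and leaving out WT pool 4 to 0.31. Trib2, whose product directs C/EBP alpha to degradation, differed by -0.36 (SE 0.21), or -0.17 without WT pool 1. Ddit3, which encodes the stress-induced family member CHOP, differed by -0.23 (SE 0.13).

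Of 11 genes for corepressors and partners of GFI1, 9 had the higher mean in KO, with a median of 0.06, but 6 of 11 after a further quantile normalization of the arrays and 6 of 11 without KO pool 4. The histone deacetylase gene Hdac2 differed by 0.20 (SE 0.15), Hdac1 by 0.15 (SE 0.11) and Kdm1a, which encodes the demethylase LSD1, by 0.18 (SE 0.15). Hdac2 was at 0.07 without KO pool 3, Hdac1 at 0.09 without WT pool 4 and Kdm1a at 0.04 without WT pool 2. Of the 7 other IRF genes 3 were higher and 4 lower, with a median of -0.03 that was 0.02 with arrays centred on their medians and 0.04 without WT pool 1. Irf3 differed by 0.20 (SE 0.11), Irf7 by 0.23 (SE 0.18) and Irf5 by -0.14 (SE 0.14). Leaving out KO pool 4 brought Irf7 to 0.41 and Irf5 to -0.25, without KO pool 3 Irf7 was at 0.14, and Irf5 was at -0.08 without KO pool 2 or WT pool 1.

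Among 44 other transcription factors of myeloid cells 27 had the higher mean in KO, with a median of 0.06, 5 had an unadjusted p under 0.05 (4.55% of all genes did) and in 3 the groups did not overlap (2.58% of all genes). Those 3 were Gfi1b, Mef2c and Mitf. Gfi1b, the relative of Gfi1 that acts in erythroid cells and megakaryocytes, was at 9.89, 10.01, 9.91 and 10.24 in KO and at 9.70, 9.31, 9.87 and 9.27 in WT. Every KO pool exceeded every WT pool, by a difference of means of 0.47 (SE 0.15), with an exact permutation p of 0.0286, the smallest that 4 against 4 pools can give, and a limma adjusted p of 0.967. Mef2c, a factor of lymphoid and myeloid progenitors, differed by 0.31 (SE 0.13) and Mitf, a factor of mast cells and melanocytes, by -0.35 (SE 0.13), each with a limma adjusted p of 0.967.

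The transcription factors of the opposing erythroid and megakaryocyte fate had the higher mean in KO in 13 of 15 cases, with a median of 0.13, and 4 of the 15 had an unadjusted p under 0.05 where 4.55% of all genes did. Gfi1b, Tal1, Nfe2, Fli1 and Etv6, all higher in KO, were also counted among the other myeloid factors above. With any pool left out, 12 or 13 of the 15 were higher. Gata1, the erythroid and megakaryocyte regulator that opposes PU.1, was at 7.47, 7.88, 7.71 and 7.57 in KO and at 6.55, 6.75, 7.79 and 7.06 in WT. WT pool 3 lay within the KO range and the other WT pools below it, and the difference was 0.62 (SE 0.23; limma adjusted p 0.967, exact permutation p 0.114). Mafg, also among the 4 with an unadjusted p under 0.05, was lower in KO, with a difference of -0.39 (SE 0.15). In the megakaryocyte marker list 9 of 9 measured genes were higher in KO, 6 of 9 without WT pool 1. Its mean level ran from 8.41 to 8.90 in KO and from 8.15 to 8.72 in WT. Of 13 erythroid markers 9 were higher, with mean levels from 6.43 to 7.03 in KO and from 6.35 to 6.78 in WT. The part of these markers in the Gata1 and Gfi1b values was not tested. Among 16 factors of the lymphoid fate 10 were higher and 6 lower, with a median of 0.02, but 6 were higher and 10 lower without KO pool 1 (median -0.01) or without KO pool 4 (median -0.02). Id3, dim in both groups and above the dim reference in 1 of 8 pools, differed by 0.59 (SE 0.28), or 0.35 without WT pool 4. Tcf3 differed by 0.34 (SE 0.21), which became 0.16 when KO pool 4 was omitted and 0.22 when WT pool 2 was, and Satb1 by -0.17 (SE 0.13), or -0.05 without KO pool 1.

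**Figure D4:**
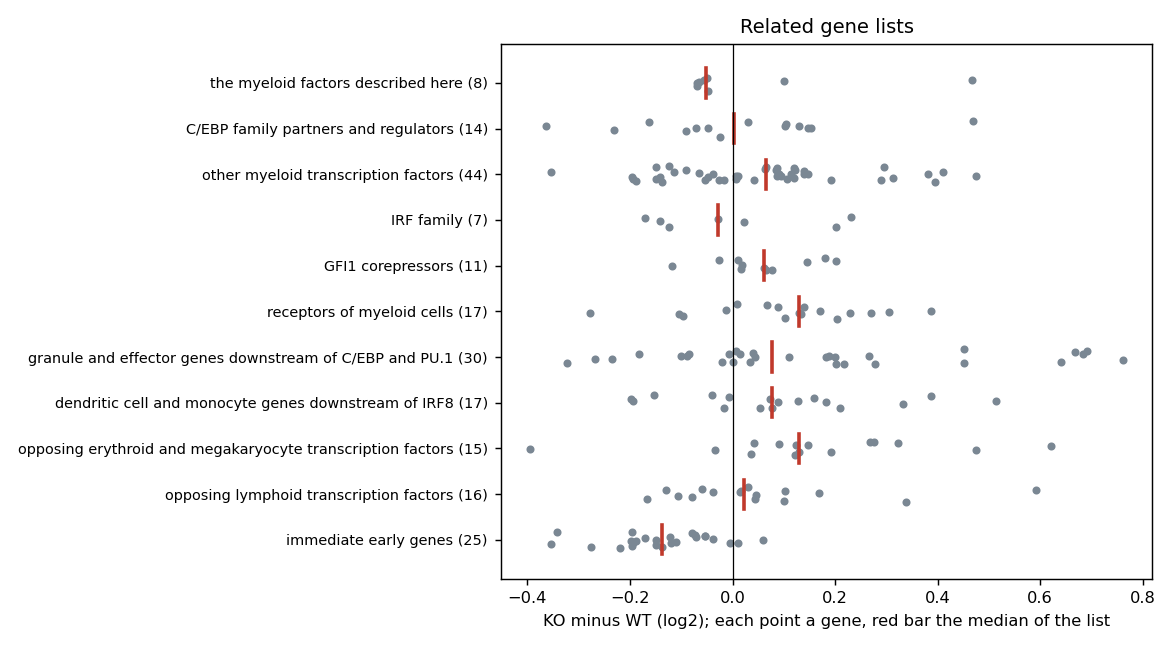
Difference between group means (KO minus WT, log2) of each gene in the lists, each point a gene, the red bar the median of its list, with the number of measured genes in brackets. Of the 8 factors 7 lie between -0.07 and 0.10, and the granule and effector genes reach from -0.32 to 0.76.

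Among downstream genes, the granule and effector list had a median within-group SD of 0.37 and the dendritic cell and monocyte list 0.22. Of the 30 granule and effector genes 21 were higher and 9 lower, with a median of 0.08, or 0.15 for those above the median level of all genes. Of the 30, 0 had an unadjusted p under 0.05 in limma, where 4.55% of all genes did. Most genes of the neutrophil and monocyte marker list, among them Mpo, Elane, Ltf and S100a8, are also in this list. The counts of these lists are therefore not separate results. Ltf, which encodes lactoferrin of the secondary granules that C/EBP epsilon controls, was at 4.56, 6.49, 5.13 and 5.70 in KO and at 4.65, 4.54, 4.95 and 4.96 in WT. KO pool 2 was the highest and KO pool 4 the next. Ltf was dim in WT and above the dim reference in 3 of 8 pools, so the difference of 0.69 (SE 0.32), or 0.35 without KO pool 2, is taken against a background level. Lyz2, the lysozyme gene, differed by 0.45 (SE 0.21), or 0.29 without WT pool 2, and the dim Fc receptor gene Fcgr2b by 0.20 (SE 0.11), or 0.13 without WT pool 1. Of 17 dendritic cell and monocyte genes known downstream of IRF8, 11 were higher, with a median of 0.08, but 14 of 17 both after a further quantile normalization and with arrays centred on their medians. The median was 0.18 for the 9 of them above the median level of all genes. Ctss, which encodes the protease cathepsin S, was at 6.43, 6.48, 6.67 and 6.16 in KO and at 5.89, 6.08, 6.05 and 6.18 in WT. KO pool 4 and WT pool 4 overlapped there, and the difference was 0.39 (SE 0.13; limma adjusted p 0.967). Cd180 differed by 0.51 (SE 0.30), or 0.31 without KO pool 3, 0.77 without KO pool 1 and 0.78 without WT pool 3, and Blnk, dim in both groups and in 0 of 8 pools above the dim reference, by -0.19 (SE 0.13), or -0.11 without WT pool 3.

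Surface receptors of myeloid cells, most of them for cytokines, had the higher mean in KO in 13 of 17 cases, with a median of 0.13. The list also holds the lectin gene Cd33 and the Toll-like receptor genes Tlr2 and Tlr4. Of the 17, 1 had an unadjusted p under 0.05 in limma, where 4.55% of all genes did. That gene was Ifnar2, a chain of the type I interferon receptor, which differed by 0.39 (SE 0.13; limma adjusted p 0.967), at 8.46 to 8.90 in KO and 8.11 to 8.50 in WT. Ifngr2 differed by 0.30 (SE 0.15) and Flt3 by 0.27 (SE 0.16), or 0.14 without KO pool 2. Csf3r, the G-CSF receptor gene that C/EBP alpha controls, was at 7.50, 7.14, 6.28 and 6.93 in KO and at 7.45, 7.38, 6.93 and 7.19 in WT, lowest in KO pool 3 where Mpo was highest.

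Immediate early genes, which share rapid induction with Cebpb and Cebpd, were lower in KO in 23 of 25 cases, with a median of -0.14. WT pool 4 had the highest mean deviation, 0.50, with 0.07 in WT pool 2 and values between -0.17 and -0.01 in the other pools. Without WT pool 4, 13 of 25 were lower and the median was -0.02. Egr1, Egr2, Egr3, Jun, Junb, Jund, Klf4 and Klf6, all lower in KO over all pools, were also counted among the other myeloid factors above. The differences of Fos, -0.28 (SE 0.18), and Fosb, -0.35 (SE 0.18), became -0.09 and -0.19 once WT pool 4 was left out. Dusp2, a phosphatase gene, differed by -0.34 (SE 0.11) with groups that did not overlap and a limma adjusted p of 0.967. In WT pool 4, where the immediate early genes were highest, Cebpb had its lowest level of all pools. Cebpd was at 4.43 there, below the dim reference, so this value cannot show whether Cebpd follows those genes.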

How the data were processed

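RNA of 4 KO and 4 WT pools was measured, 1 array per pool. Per the labels' protocols, RNA was amplified from very small amounts by SPIA and labelled with biotin. Per the submitters' processing notes, the authors used RMA and Affymetrix Expression Console 1.3, and the deposited values are log2 levels from 1.47 to 13.3 for 28853 probe sets. The annotated table also holds the authors' deposited p-value, log2 ratio and signed fold for KO against WT. The release of the probe set annotation has no statement in the labels or headers. The number of arrays limits the precision.

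Probe sets with 1 symbol (23586) were kept, the brightest for each gene with several, which left 21104 genes. KO was compared with WT in R 4.3.3 with limma 3.58.1 (lmFit, eBayes, no covariate) and p was adjusted over all genes by the Benjamini-Hochberg method, threshold 0.05. Exact permutation tests are 2-sided over all 70 assignments of pools. The fit was tested on simulated data. The labels call the pools biological replicates but give no batch, litter or day. Members and lists were chosen with earlier results of these data known. The genes named are the 8 factors, up to 3 genes per list with the smallest limma p, and up to 2 genes per factor with the highest Pearson r over the pools among genes above the median level. Mpo, S100a8, Csf3r and the markers named singly were chosen after their values were seen. Alternatives were another normalization, filters on dim probe sets, array weights, another variance model, every probe set, the authors' p-value, the replicate block and leaving out each pool.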

Additional observations from a re-analysis of the deposited data

Results flagged for a closer look

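Among the 8 factors and 29 genes named from the lists, 4 of the 74 groups of pools held a pool far from the others by Dixon's ratio, where chance gives about 1 in 20 groups. Irf3 was at 7.59 in KO pool 3 against 7.80 to 7.83 in the other KO pools, and Kdm1a at 8.41 in KO pool 4 against 8.17 to 8.21. Fcgr2b was at 4.19 in WT pool 1 against 4.45 to 4.47, and Fos at 10.70 in WT pool 4 against 9.89 to 9.97. None of the 8 factors had such a pool in either group.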

How the results depend on the processing

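Of the 8 factors, 0 passed under any alternative run, and the smallest adjusted p was that of Cebpd with the replicate number as a block, 0.583. With 1 pool left out, the differences ranged from -0.11 to -0.02 for Cebpa, -0.12 to -0.03 for Cebpb, 0.36 to 0.61 for Cebpd, 0.07 to 0.12 for Cebpe, -0.12 to 0.04 for Cebpg, -0.13 to -0.02 for Gfi1, -0.14 to 0.01 for Irf8 and -0.14 to 0.03 for Sfpi1. Without KO pool 1, Cebpg was at 0.00. Over all genes 2 passed with the replicate number as a block and 0 under each other alternative, including each pool left out. Deviations of equally numbered KO and WT pools correlated at 0.287, 0.213, 0.305 and 0.062 for numbers 1 to 4. Each pool correlated best with the pool of its own number in the other group, a hint from the data that the labels do not explain, so the numbers were not taken as pairs. Cebpd was higher in KO at each number, by 0.38, 0.85, 0.13 and 0.51 for numbers 1 to 4. So was Cebpe, by 0.24, 0.12, 0.01 and 0.03, while each other factor was higher at some numbers and lower at others. The highest KO and the highest WT pool had the same number for 5 of the 8 factors and for 34.8% of all genes. With 1 pool left out, the list medians ranged from 0.04 to 0.14 for granule and effector genes, 0.08 to 0.17 for myeloid receptors, 0.01 to 0.10 for other myeloid factors and -0.23 to -0.02 for immediate early genes. Dim signal limits Cebpd and Cebpa most.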
